A study of Mus musculus with 8 samples.

Results

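The syndecans and glypicans are the membrane-anchored heparan sulfate proteoglycans of the cell surface, and 8 of their genes were followed here in mouse peritoneal mesothelial cells (MCs): Sdc1, Sdc2, Sdc3, Sdc4, Gpc1, Gpc3, Gpc4 and Gpc6. The 8 genes were taken by symbol from a table of 13687 genes, and all 8 had a value in each of the 8 RNA-seq libraries. They were chosen by family and selected on their CPM in static and stretched culture, with Sdc4 lower on stretch in every animal, so the stretch values below are a description, with no test. MCs came from the parietal peritoneum of 2 wild-type (WT) and 2 CAV1-/- mice. The knockout is constitutive, so every cell of the animal lacks Cav1, the main coat protein of caveolae, and the WT mice were littermates. Cells of each animal were grown to confluence and then either stretched or kept static for 24 h, which gave 4 groups of 2 cultures: static WT, stretched WT, static CAV1-/- and stretched CAV1-/-. An animal is named below by its genotype and its replicate number.

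Syndecans cross the membrane and end in a short cytoplasmic tail that binds PDZ proteins such as syntenin, whereas glypicans are held in the outer leaflet by a glycosylphosphatidylinositol anchor. Both carry heparan sulfate chains, which bind growth factors, chemokines and matrix proteins and present them to their receptors. Syndecan-4 sits in focal adhesions, where it acts with integrins as a receptor for fibronectin, and syndecan-1 is the main syndecan of epithelial cells. The glypicans are known chiefly as modulators of Hedgehog, Wnt, FGF and BMP signalling, and loss of GPC3 causes an overgrowth syndrome.

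The question put to these genes was whether their messages differed between WT and CAV1-/- MCs, and how they stood in static and stretched culture. Values are TMM-normalized CPM, that is, reads of a gene scaled to a common library size after the total of each library was adjusted by the trimmed mean of M-values. The libraries held between 9777738 and 21203938 reads, and every stretched library was deeper than every static one. The value of 3 reads, taken as the limit that a count of 0 allows, was between 0.146 and 0.308 CPM, which covers counting error only. Cav1 checked the labels: it was at 764 and 275 CPM in static WT cultures and 570 and 247 CPM in stretched WT cultures, against 34.5 and 18.9 CPM in static and 20.0 and 12.8 CPM in stretched CAV1-/- cultures. Of 12 mesothelial markers 10 had a value, and Calb2 and Cdh1 had no row in the table. Their summed level was between 2820 and 3570 CPM in WT cultures and between 843 and 1084 CPM in CAV1-/- cultures, with all 10 lower on average in the knockout. Both cultures of CAV1-/- animal 1 stood apart in 12 leukocyte markers, which summed to between 4821 and 4835 CPM there and to between 81.1 and 471 CPM in the other 6 cultures. In that animal 11 of the 12 leukocyte markers lay above every other culture.

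The syndecans end their coding sequences alike, in the stretch that encodes the PDZ-binding tail. The last 45 coding bases of each are shown, stop codon included, because they set out how the 4 syndecans are related. They are read from the GENCODE transcripts of mouse build GRCm38, at chr12:8791763-8791807 (plus strand) for Sdc1, chr15:33032496-33032540 (plus strand) for Sdc2, chr4:130822765-130822809 (plus strand) for Sdc3 and chr2:164426086-164426130 (minus strand) for Sdc4. In each gene the stretch lies in a single exon. Capitals mark the 14 positions at which all 4 genes hold the same base.
Sdc1: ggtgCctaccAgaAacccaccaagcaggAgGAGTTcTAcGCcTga
Sdc2: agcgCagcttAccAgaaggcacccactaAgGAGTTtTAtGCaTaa
Sdc3: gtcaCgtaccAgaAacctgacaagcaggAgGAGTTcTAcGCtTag
Sdc4: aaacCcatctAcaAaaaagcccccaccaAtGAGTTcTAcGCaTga
Sdc1 and Sdc3 shared 35 of the 45 bases and Sdc2 and Sdc4 shared 29, while the other 4 pairs shared between 18 and 24. No stretch of 61 bases, the full length of a read, in the main transcript of a member occurred in a transcript of another member. Full-length reads of a main transcript thus had no exact match in another member. Reads shortened by trimming and inexact matches were not checked. Sharing with genes outside the family was found for Gpc1, in which 22.3% of the 61-base windows of its main transcript also occur in transcripts of Ankmy1, a gene with no row in the table. For Sdc3 the share was 6.02%, with Gm26716, which was itself between 0.700 and 8.88 CPM. It was 1.36% for Sdc2, 0.613% for Sdc1 and 0% for Sdc4, Gpc3, Gpc4 and Gpc6. The values of Gpc1 and, to a lesser degree, Sdc3 are uncertain to that extent.

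The genes lie on 7 chromosomes of GRCm38. Sdc4 spans chr2:164424247-164443887 on the minus strand and Sdc3 spans chr4:130792537-130826319 on the plus strand. Gpc4 (chrX:52053021-52165252) and Gpc3 (chrX:52272426-52613950), both on the minus strand, are 107173 bases apart on the X chromosome. Gpc6 lies at chr14:116925315-117976544, and Gpc5, the glypican that precedes it there by 400135 bases, had no row in the table.

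Per kilobase of the main transcript, Sdc4 was the most abundant of the 8 genes in every culture. Its level was between 120 and 236 CPM per kb, with a median over the 8 cultures of 170, and its lowest value lay above the highest value of every other member. Gpc1 had a median of 49.2 CPM per kb, Sdc1 41.4, Sdc2 30.2, Sdc3 24.2, Gpc4 22.1, Gpc3 17.8 and Gpc6 6.49. From Gpc1 to Gpc3 each gene's range over the cultures overlapped that of the next in this order, so their order was not separated by the spread, and Sdc3 and Gpc4 changed places when all exons of a gene were counted in its length. Gpc6, at 3.28 to 10.4 CPM per kb, stayed below the lowest value of Gpc4 and overlapped Gpc3, which ranged from 1.07 to 51.4. Of the summed level per kb of the 8 genes, Sdc4 made up between 45.9% and 58.6% in static culture and between 33.8% and 51.6% on stretch.

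**Figure D1:**
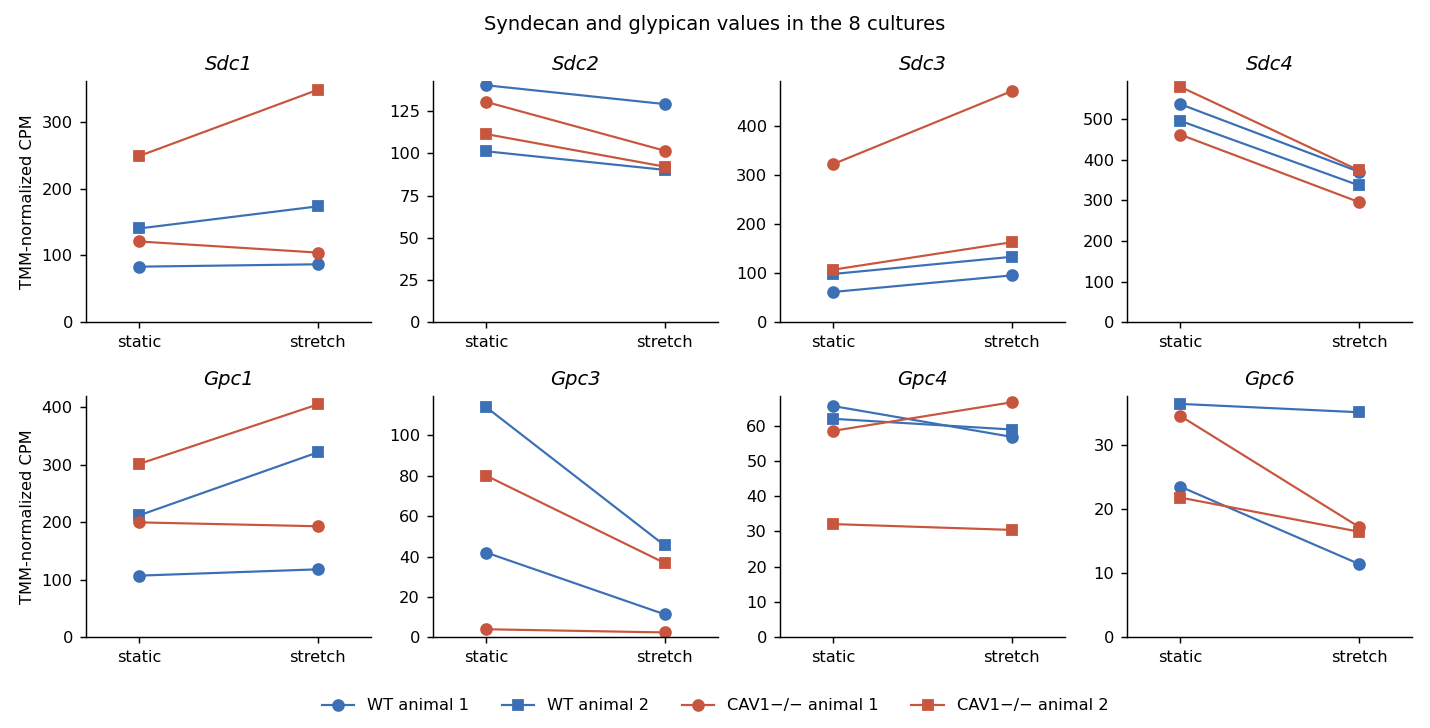
TMM-normalized CPM of each gene (vertical axes, from 0, scaled separately) in the static and the stretched culture of each animal, with a line joining the cultures of 1 animal, WT in blue and CAV1-/- in red. The 4 lines of Sdc4 run down together from between 462 and 580 CPM to between 296 and 374 CPM, while CAV1-/- animal 1 stands high for Sdc3 and near 0 for Gpc3.

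Sdc4, the focal adhesion syndecan, was lower on stretch in all 4 animals and by a like amount in each. In the WT animals it was at 537 and 496 CPM in static culture and at 371 and 337 CPM on stretch. In the CAV1-/- animals it was at 462 and 580 CPM in static culture and at 296 and 374 CPM on stretch. All 4 stretched cultures lay below all 4 static cultures, whatever the genotype. The means were 517 ± 29.0 and 354 ± 23.7 CPM in static and stretched WT cultures and 521 ± 83.2 and 335 ± 55.2 CPM in static and stretched CAV1-/- cultures (SD, n = 2 each). Within an animal the stretched culture was lower by 31.0% and 32.0% (WT) and by 35.9% and 35.5% (CAV1-/-), and on the log2(CPM + 1) scale the difference was -0.59 ± 0.054 (SD, n = 4 animals). These values rest on between 5475 and 7677 reads a culture. Of all 13665 genes with a value of at least 1 CPM in 2 or more cultures, 1.47% had all 4 stretched cultures below all 4 static ones, and Sdc4 was the only member that did. Since the choice of Sdc4 used this contrast, nothing is read from that share. In these bulk cultures, fewer cells of a type and less RNA per cell cannot be told apart. The summed mesothelial markers were also lower on stretch in all 4 animals, by 1.64% to 21.0%. Of the 10 with a value, 4 were lower in all 4 animals and 1 (Pdpn) was higher in all 4. The median log2 difference over the 10 was -0.31, and the part of these markers in the Sdc4 difference was not tested.

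Of the other 3 syndecans, Sdc2 was lower and Sdc3 higher on stretch in every animal. Sdc2, a syndecan of mesenchymal cells, was at 140 and 101 CPM in static and 129 and 90.2 CPM in stretched WT cultures, and at 130 and 111 CPM in static and 102 and 92.2 CPM in stretched CAV1-/- cultures. The stretched culture was lower by 7.93% to 22.1% within an animal. Sdc3, best known from the nervous system and also found on macrophages, was at 61.8 and 98.3 CPM in static and 95.5 and 133 CPM in stretched WT cultures, and at 322 and 107 CPM in static and 470 and 163 CPM in stretched CAV1-/- cultures. Each stretched culture was thus above its own static culture, by 35.5% to 54.4%, or 0.55 ± 0.083 on the log2 scale (SD, n = 4 animals). Nothing is read from how alike the animals were, because the members were chosen with this contrast known. The summed leukocyte markers were also higher on stretch in all 4 animals, by 0.294% to 9.95%. Of the 12 markers only Lyz2 was higher in all 4, and the median log2 difference over the 12 was -0.053. The part of leukocytes in the Sdc3 difference was not tested. Sdc1, the epithelial syndecan, was at 83.2 and 140 CPM in static and 86.8 and 173 CPM in stretched WT cultures, and at 121 and 249 CPM in static and 104 and 347 CPM in stretched CAV1-/- cultures. It was higher on stretch in 3 animals and lower, by 13.7%, in CAV1-/- animal 1.

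Among the glypicans, Gpc3 and Gpc6 were lower on stretch in all 4 animals, and Gpc1 and Gpc4 were not uniform. Gpc3, which restrains Hedgehog signalling, was at 42.0 and 114 CPM in static and 11.3 and 45.5 CPM in stretched WT cultures, and at 3.96 and 80.1 CPM in static and 2.38 and 36.8 CPM in stretched CAV1-/- cultures. Within an animal this was 39.9% to 73.0% less, the widest gap of any member, and on the log2(CPM + 1) scale -1.19 ± 0.52 (SD, n = 4 animals). In CAV1-/- animal 1 the values rest on 48 and 49 reads, with exact 95% Poisson intervals of 2.92 to 5.24 CPM in static and 1.76 to 3.14 CPM in stretched culture, which overlap. The 8 fibroblast markers summed to between 12676 and 29452 CPM in static and between 12107 and 25714 CPM in stretched cultures. Their sum was lower on stretch in each of the 4 animals, by 4.49% to 24.6%. Of the 8 markers, 4 were lower in all 4 animals and 0 were higher in all 4. The median log2 difference over the 8 was -0.50. Single markers varied, with Lum from 87.6% less to 8.40% more and Col1a1 from 22.9% less to 13.0% more. The part of fibroblasts in the Gpc3 difference was not tested. Gpc6 was at 23.5 and 36.4 CPM in static and 11.4 and 35.1 CPM in stretched WT cultures, and at 34.5 and 21.8 CPM in static and 17.2 and 16.5 CPM in stretched CAV1-/- cultures. Its difference ran from 3.57% less in WT animal 2 to 51.3% less in WT animal 1. The gap in WT animal 2 rests on 451 and 570 reads. At the lowest count of Gpc6, 212 reads, the counting error was 6.87%, so no fall is read in that animal.

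Gpc1 was higher on stretch in 3 animals and 3.38% lower in CAV1-/- animal 1, with 107 and 212 CPM in static and 118 and 321 CPM in stretched WT cultures and 200 and 301 CPM in static and 193 and 405 CPM in stretched CAV1-/- cultures. Gpc4 was at 65.5 and 61.9 CPM in static and 56.8 and 58.9 CPM in stretched WT cultures, and at 58.5 and 32.1 CPM in static and 66.6 and 30.4 CPM in stretched CAV1-/- cultures. Gpc4 was therefore a little lower on stretch in 3 animals and 13.8% higher in CAV1-/- animal 1. In all, 4 of the 8 members were lower and 1 was higher on stretch in all 4 animals, where 16.9% and 14.5% of all genes tested were. Nothing is read from these counts, because the members were chosen with this contrast known. The median log2 difference over the 8 members was -0.13, beside -0.0093 over all genes.

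**Figure D2:**
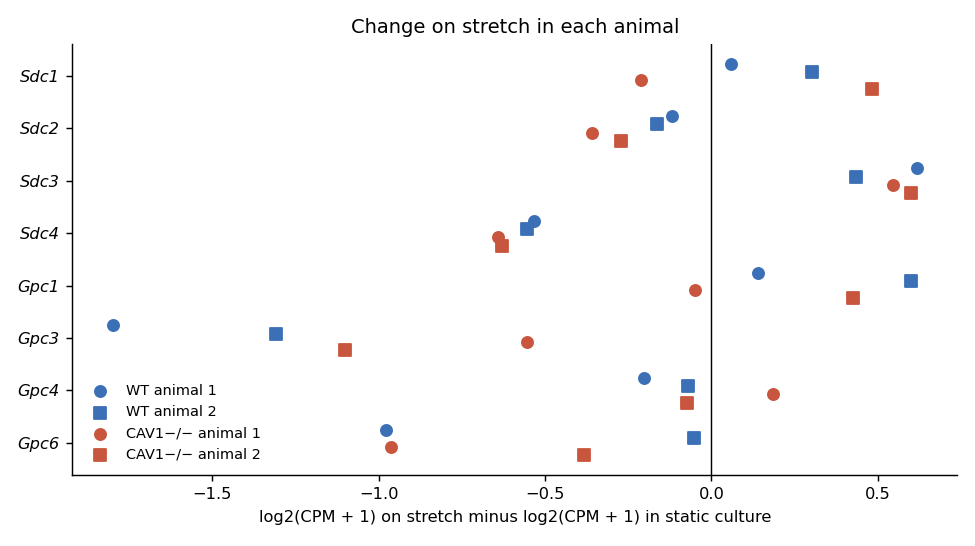
Difference of log2(CPM + 1) between the stretched and the static culture of each animal (horizontal axis), 1 row per gene and 1 point per animal. The 4 points of Sdc4 lie together between -0.64 and -0.53 and those of Sdc3 between 0.43 and 0.62, whereas those of Gpc3 spread from -1.80 to -0.55.

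Promoter sequences from RefSeq (build GRCm38.p6), covering 250 bases before to 50 bases after the start of a gene, were found for 5 of the 8 members: Sdc1, Sdc3, Sdc4, Gpc3 and Gpc4. Those of Sdc4 and Gpc3 are shown because both genes were lower on stretch in every animal and by the most among the genes with a promoter in the table. Capitals mark the letters GGGCGG, known as the GC box, or its complement CCGCCC. The window of Sdc4 is chr2:164443139-164443438 and that of Gpc3 is chrX:52613925-52614224, both on the minus strand.
Sdc4: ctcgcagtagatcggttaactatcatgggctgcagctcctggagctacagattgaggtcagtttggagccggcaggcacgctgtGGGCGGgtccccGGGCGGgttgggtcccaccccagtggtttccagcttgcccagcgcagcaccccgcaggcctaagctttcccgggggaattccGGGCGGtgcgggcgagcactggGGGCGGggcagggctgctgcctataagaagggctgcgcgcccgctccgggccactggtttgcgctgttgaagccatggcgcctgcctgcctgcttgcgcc
Gpc3: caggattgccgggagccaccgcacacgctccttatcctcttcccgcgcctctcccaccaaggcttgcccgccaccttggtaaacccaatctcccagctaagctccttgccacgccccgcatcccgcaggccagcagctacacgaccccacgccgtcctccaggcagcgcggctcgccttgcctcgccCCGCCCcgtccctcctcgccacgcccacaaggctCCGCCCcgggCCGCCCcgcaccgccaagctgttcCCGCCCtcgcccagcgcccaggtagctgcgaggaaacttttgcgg
Each window held 4 GC boxes, and 35.7% of the 32851 promoters in the table held at least 1. Motifs of 3 other kinds were searched on both strands: GGAATG for TEAD, TGANTCA for AP-1 and CAGAC for SMAD, which 14.7%, 7.81% and 49.6% of all promoters held. None of the 3 occurred in the windows of Sdc4 and Gpc3. Sdc3, which was higher on stretch, held 2 SMAD letters and 3 GC boxes, Sdc1 held 1 and 3, and Gpc4 held 1 TEAD motif and 1 GC box. The annotation used for the coordinates above also places a start of Sdc4 upstream of this window, which was not searched.

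Between genotypes, none of the 8 members differed past the threshold. The rule that chose the genes did not name this contrast, but the choice was made with earlier results of these data known. Differences are CAV1-/- minus WT on the log2(CPM + 1) scale, tested two-sided by limma across all 13665 genes with Benjamini-Hochberg adjustment. In static culture 0 of 8 members were called at an adjusted p under 0.05, where 0.0732% of all genes were, and 0 of 8 on stretch, where 0.0585% were. Over both conditions, with the mean of each animal as 1 value, 0 of 8 members and 0% of all genes were called by limma, while edgeR called 0 genes and DESeq2 358, no member among them. At an unadjusted p of at most 0.05 the counts of members were also 0 in static culture (8.17% of all genes), 0 on stretch (6.26%) and 0 over both conditions (5.96%). The edgeR quasi-likelihood test and DESeq2, run on the reads recovered from the CPM, called 0 members in each comparison. An exact permutation test of 2 against 2 cultures cannot give a p below 0.333.

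Sdc3 had the largest positive difference. Its mean over both conditions was 97.2 CPM in WT and 265 CPM in CAV1-/- animals, a log2 difference of 1.26 with a standard error (SE) of 0.59 (95% interval -0.38 to 2.91, limma adjusted p = 0.927). Both CAV1-/- cultures lay above both WT cultures in static culture, as for 16.1% of all genes, and on stretch, as for 14.6%. The static culture of CAV1-/- animal 2, at 107 CPM, was nevertheless below the stretched culture of WT animal 2, at 133 CPM. Without CAV1-/- animal 1 the log2 difference over both conditions was 0.49 (limma adjusted p = 0.912).

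Gpc3 had the largest negative difference and the widest interval. Its mean over both conditions was 53.2 CPM in WT and 30.8 CPM in CAV1-/- animals, a log2 difference of -1.45 (SE 1.46, 95% interval -5.49 to 2.59, limma adjusted p = 0.999). The direction turned without CAV1-/- animal 1, to 0.43 (limma adjusted p = 0.982), so the sign rested on that animal.

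Sdc4 had the narrowest interval of the 8. Its log2 difference was 0.0042 (95% interval -0.43 to 0.43) in static culture, -0.087 (-0.52 to 0.34) on stretch and -0.041 (-0.53 to 0.45) over both conditions, with limma adjusted p-values of 0.999, 1.00 and 0.999. A genotype difference of Sdc4 outside those intervals was not seen, while a smaller one could not be detected with 2 animals a genotype. Sdc2 was close behind, at -0.070 over both conditions (95% interval -0.66 to 0.52). Gpc4, a glypican of astrocytes and many other cells, was lower in both static CAV1-/- cultures than in both WT cultures, as were 20.8% of all genes, and overlapped on stretch, where 0 members and 15.9% of all genes were lower without overlap. Its log2 difference was -0.54 in static culture (limma adjusted p = 0.838) and -0.45 over both conditions (95% interval -1.45 to 0.55). Sdc1 and Gpc1 were 0.65 and 0.61 higher over both conditions, with 95% intervals of -0.97 to 2.28 and -0.86 to 2.07, and Gpc6 was at -0.17 (-1.33 to 0.99). No member had all 4 CAV1-/- cultures above all 4 WT cultures or below them, which 3.86% and 5.88% of all genes had. The median over the members was -0.056, beside -0.0037 over all genes.

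**Figure D3:**
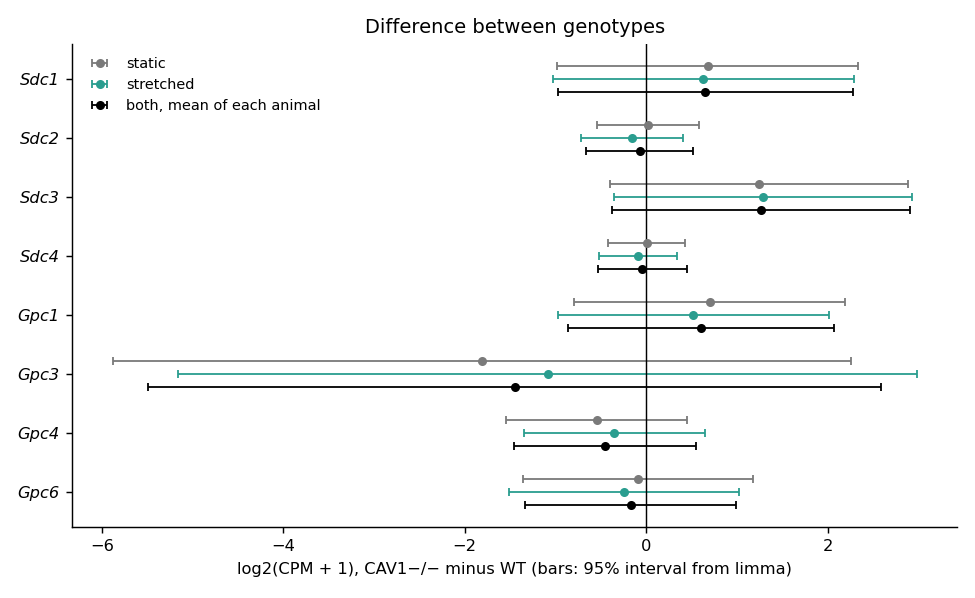
Log2(CPM + 1) in CAV1-/- minus WT (horizontal axis) for each gene in static culture (grey), in stretched culture (green) and over both with the mean of each animal (black). Points are limma estimates, bars their 95% intervals. Every interval holds 0, and those of Sdc4 and Sdc2 are the shortest and those of Gpc3 the longest.

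The difference between animals of 1 genotype was larger than that between genotypes for several members. Gpc3 differed 3.17-fold between the WT animals and 13.5-fold between the CAV1-/- animals, on the mean log2(CPM + 1) of an animal. Sdc3 differed 1.48-fold and 2.93-fold, Sdc1 1.83-fold and 2.60-fold, and Gpc1 2.31-fold and 1.77-fold. Gpc6 differed 2.11-fold between the WT animals and 1.28-fold between the CAV1-/- animals. Sdc4 differed 1.09-fold and 1.26-fold. Gpc4 was nearly equal in the WT animals (1.01-fold) and differed 1.97-fold between the CAV1-/- animals. Sdc1, Gpc1 and Gpc3 were each higher in replicate 2 than in replicate 1 in all 4 groups, as were 21.4% of all genes, and Sdc2 was lower in replicate 2 in all 4 groups, as were 21.8%.

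In CAV1-/- animal 1, which the leukocyte markers set apart, 1 member (Sdc3) lay above the other 6 cultures and 1 (Gpc3) below. Sdc3 at 322 and 470 CPM was above every other culture in that animal, and Gpc3 at 3.96 and 2.38 CPM was below every other. The summed leukocyte markers were between 4821 and 4835 CPM in CAV1-/- animal 1, between 308 and 338 CPM in CAV1-/- animal 2, between 450 and 471 CPM in WT animal 1 and between 81.1 and 83.9 CPM in WT animal 2. In the other 3 animals the mean of Sdc3 over both cultures was 78.7 CPM in WT animal 1, 116 CPM in WT animal 2 and 135 CPM in CAV1-/- animal 2. The summed fibroblast markers were between 12107 and 12676 CPM in CAV1-/- animal 1 and between 12664 and 15425 CPM in WT animal 1, the animals with the least Gpc3, and between 20162 and 29452 CPM in the other 2. The part of these cells in the values of Sdc3 and Gpc3 was not tested. Of all genes tested, 12.2% had both cultures of CAV1-/- animal 1 above the other 6 and 12.2% had both below. The members were near that share, at 1 of 8 each way, so nothing is read from these counts.

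**Figure D4:**
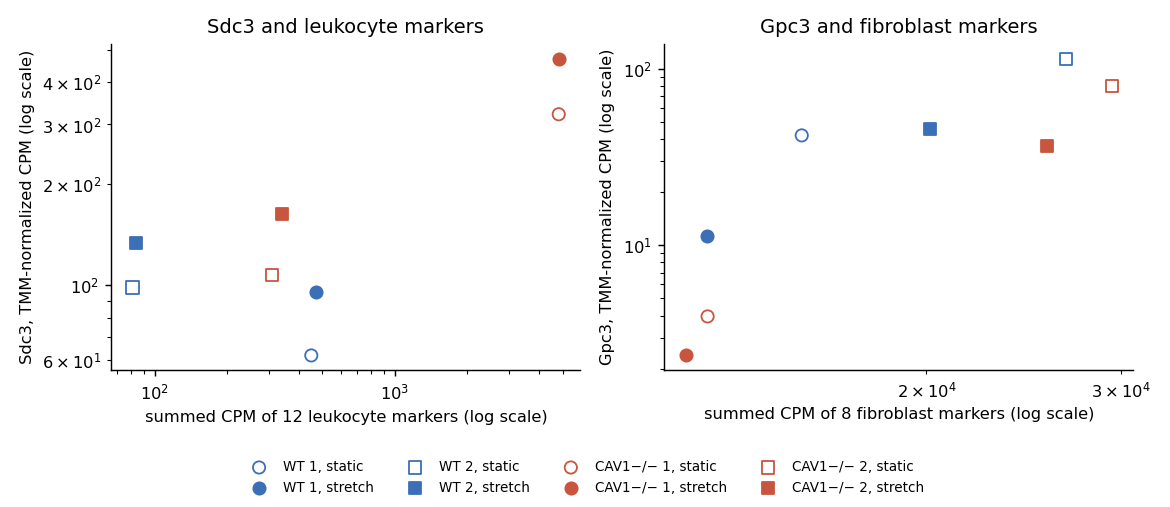
Left, Sdc3 against the summed CPM of 12 leukocyte markers, and right, Gpc3 against the summed CPM of 8 fibroblast markers, 1 point per culture, all axes on a log scale, open for static and filled for stretched. CAV1-/- animal 1 (red circles) lies at the top right for Sdc3 and at the bottom left for Gpc3.

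The stretch difference was also compared between genotypes. The interaction, that is, the stretch difference in CAV1-/- minus that in WT, was called for 0 of 8 members by limma at an adjusted p under 0.05, as for 0% of all genes, and at an unadjusted p of at most 0.05 for 0 of 8 members and 0.483% of all genes, with 0 genes by edgeR and DESeq2. Its estimates ran from -0.18 for Gpc1 to 0.73 for Gpc3, whose 95% interval was -5.03 to 6.48. For Sdc4 the stretch difference was -0.54 in WT and -0.64 in CAV1-/- animals, given as a description, and the difference between them was -0.091 (95% interval -0.70 to 0.52). For Sdc3 it was 0.53 and 0.57, a difference of 0.047 (95% interval -2.28 to 2.37). These intervals come from a fit without the animal and hold the spread between animals, which the pairing of static and stretched culture removes. With the animal as a block the intervals were -0.36 to 0.17 for Sdc4 and -0.24 to 0.34 for Sdc3. With that block limma called 0 of 8 members and 0 genes at an adjusted p under 0.05, and at an unadjusted p of at most 0.05 it called 1 member, Gpc3, and 4.25% of all genes. Gpc3 then had a 95% interval of 0.11 to 1.34 (limma unadjusted p = 0.0278, adjusted p = 0.947), and its values in CAV1-/- animal 1 rest on 48 and 49 reads.

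Across the 8 cultures the patterns of the members were set beside each other. Likeness was measured as the root mean square difference of log2(CPM + 1) after each gene was set to its own mean, so that 0 means the same pattern. The closest pair of members was Sdc1 and Gpc1, at 0.25, followed by Sdc2 and Sdc4, at 0.29, and the farthest was Sdc3 and Gpc3, at 2.51. Gpc3 and Gpc4, close together on the X chromosome, were at 1.94. Among 10796 genes with a mean of at least 5 CPM, those most like Sdc4 were Ppp6r2, a regulatory subunit of protein phosphatase 6, at 0.11, Hyi at 0.12 and Arhgap19 at 0.13. Ppp6r2 was at 21.1 and 19.3 CPM in static and 16.4 and 13.6 CPM in stretched WT cultures, and at 18.7 and 20.6 CPM in static and 13.1 and 15.8 CPM in stretched CAV1-/- cultures.

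The nearest gene to Sdc1 was Adamts4, an aggrecan-cleaving protease, at 0.17, and the nearest to Gpc1 was Runx1, a transcription factor, at 0.16. Sdc2 was most like Pttg1, or securin, at 0.070, Sdc3 like Elfn1 at 0.16, Gpc4 like Tcn2, a vitamin B12 carrier, at 0.092, and Gpc6 like Rgl1 at 0.20. The gene nearest to Gpc3 was Hcn4, a pacemaker ion channel, and it was no closer than 0.46. Genes in these comparisons share the 8 libraries, their depth and their cell makeup.

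Heparan sulfate is built on these core proteins by a chain of enzymes. Set beside the members were 81 genes in 9 lists by role, called pathway genes below. Besides enzymes that build, edit or degrade the chains, the lists hold other glypicans and proteoglycans, sugar and sulfate donors, syndecan tail partners and shedding genes. Of these, 68 could be tested. Over both conditions limma called 0 of them at an adjusted p under 0.05. At an unadjusted p of at most 0.05 there were 5 higher and 3 lower in CAV1-/- MCs. That was 11.8% of the 68, beside 5.96% of all genes (2% higher and 3.96% lower). Among those of the 68, Srgn, Spock2, Cd44, Ezr and Mmp9 came from the lists of other proteoglycans, tail partners and shedding, not from the chain enzymes. In static culture 1 fell at an adjusted p under 0.05 (Spock2), and by the unadjusted p 3 were higher and 4 lower (10.3% in all, beside 2.76% of all genes higher and 5.42% lower). On stretch the unadjusted counts were 7 higher and 3 lower (14.7% in all, beside 2.44% of all genes higher and 3.82% lower). The median difference over the 68 was 0.022 over both conditions, beside -0.0037 over all genes.

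Other proteoglycans that carry heparan sulfate held the only gene called. Spock2, a secreted testican, was at 80.0 and 66.4 CPM in static and 22.9 and 43.4 CPM in stretched WT cultures, and between 1.65 and 2.97 CPM in all 4 CAV1-/- cultures. It was lower in static CAV1-/- culture with a limma adjusted p of 0.0361. That fit covered static and stretched cultures together, with no term for the animal. From the 4 static libraries alone limma called 0 genes, so the call of Spock2 depended on the fit. Over both conditions the log2 difference of Spock2 was -3.79 (SE 0.21, limma adjusted p = 0.0882). The summed mesothelial markers, at 2820 to 3570 CPM in WT and 843 to 1084 CPM in CAV1-/- cultures, were lower in the same cultures as Spock2, and their part was not tested. Srgn, or serglycin, the granule proteoglycan of blood cells, was at 1.05 to 3.60 CPM in WT cultures and at 71.0 and 37.3 CPM in CAV1-/- animal 1 and 8.53 and 9.03 CPM in CAV1-/- animal 2. Its log2 difference was 2.84 (SE 0.93, limma adjusted p = 0.768), the leukocyte marker sum was highest in the same animal as Srgn, and its part was not tested.

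The only other glypican with a value, Gpc2, was between 6.71 and 13.7 CPM in WT and between 7.83 and 14.3 CPM in CAV1-/- cultures (log2 difference 0.20, SE 0.36). Among the 7 linkage enzymes, which build the tetrasaccharide that joins chain to protein, 6 were higher on average and none passed either threshold over both conditions. Xylt1, which adds the first xylose, was the highest of them at 0.73 (SE 0.36), and B3galt6 the lowest at -0.13 (SE 0.25). Of 5 chain synthesis genes, Extl1 was between 1.18 and 4.84 CPM in WT and between 0.494 and 0.821 CPM in CAV1-/- cultures, a log2 difference of -1.33 (SE 0.36, limma adjusted p = 0.661), and Ext1, a subunit of the polymerase, was at 0.28 (SE 0.23). Among 10 modification enzymes the 6-O-sulfotransferase Hs6st2 was at 0.93 (SE 0.44) and the 3-O-sulfotransferase Hs3st1 at -0.69 (SE 0.54). Of 9 editing and degradation genes the heparanase gene Hpse was at 0.76 (SE 0.80), with 20.4 and 18.0 CPM in CAV1-/- animal 1 and at most 8.11 CPM elsewhere, and the lysosomal sulfatase Sgsh was at -0.77 (SE 0.28).

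Among 9 genes for the supply of sugar and sulfate, the sulfate transporter Slc26a2 was at 0.34 (SE 0.13) and the nucleotide sugar transporter Slc35d1 at -0.49 (SE 0.21). Of 10 partners of the syndecan tail, Ezr, or ezrin, which links membrane proteins to actin, was between 617 and 1052 CPM in WT and between 204 and 386 CPM in CAV1-/- cultures, a log2 difference of -1.45 (SE 0.19, limma adjusted p = 0.283), while Sdcbp, or syntenin-1, was at 0.27 (SE 0.30). The summed mesothelial markers were lower in the same cultures, and their part was not tested. Of 9 genes for shedding and processing, Mmp9, a protease that can cleave syndecan ectodomains, was between 2.18 and 10.9 CPM in WT and between 55.6 and 285 CPM in CAV1-/- cultures, a log2 difference of 4.51 (SE 0.66, limma adjusted p = 0.322). The convertase Pcsk6 was at -1.21 (SE 0.67). Cd44, Glce and Sulf1 also had an unadjusted p of at most 0.05, with log2 differences of 0.59, 0.77 and 0.62, and are named after their values were seen.

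**Figure D5:**
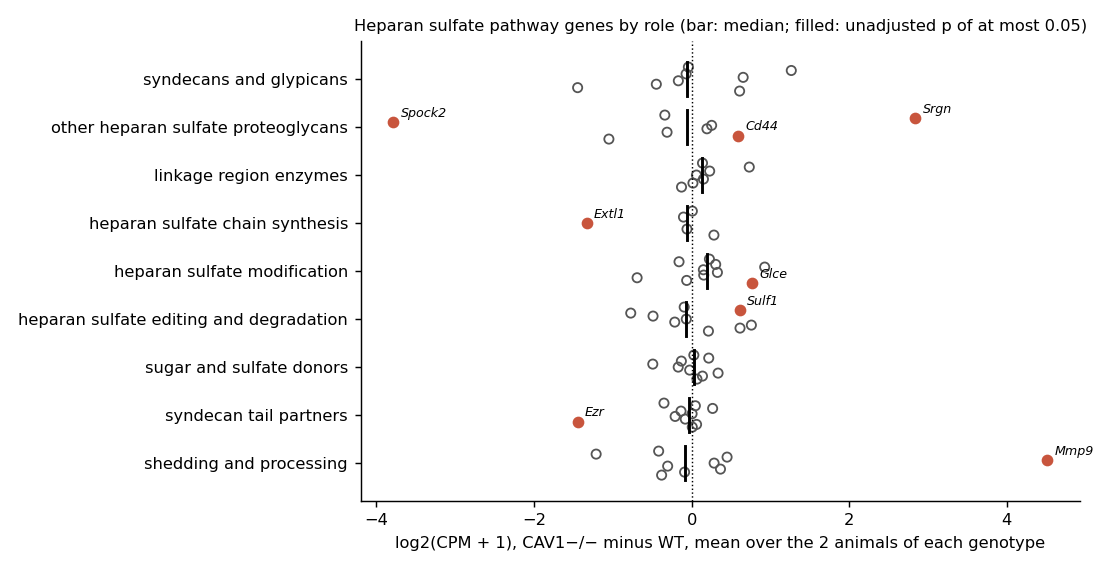
Log2(CPM + 1) in CAV1-/- minus WT over both conditions (horizontal axis) for the 8 members and for 8 lists of heparan sulfate genes by role, 1 point per gene, with a bar at the median of each list. Filled and named points had an unadjusted p of at most 0.05, and the members have none. The medians lie between -0.089 and 0.19, while Spock2 at -3.79 and Mmp9 at 4.51 lie farthest out.

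On stretch, 15 of the 68 pathway genes (22.1%) were lower and 13 (19.1%) higher in all 4 animals, beside 16.9% and 14.5% of all genes, and their median log2 difference was 0.011. The basement membrane proteoglycans Hspg2 (perlecan) and Agrn (agrin) and the betaglycan gene Tgfbr3 were lower in every animal, as Sdc4 was. Hspg2 was lower by 1.28% to 58.5%, Agrn by 9.39% to 47.1% and Tgfbr3 by 15.7% to 53.3%. Sdc4, which was chosen on this contrast, was lower by 31.0% to 35.9%, and nothing is read from how alike its animals were. Among the syndecan tail partners, Nudt16l1 (syndesmos) was lower by 22.4% to 27.6% and Ezr by 22.6% to 40.6%. The polymerase gene Ext1 was higher by 15.5% to 37.7% and the epimerase gene Glce by 8.73% to 48.3%. These lists were compared by count alone.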

How the data were processed

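RNA of the 8 cultures was sequenced as single reads of 61 bases from polyA-selected libraries that do not keep the strand. Per the study's methods, the authors trimmed reads with Cutadapt, estimated reads per gene with RSEM on the GRCm38 transcriptome, and normalized them by the TMM method of edgeR. They deposited this signal as TMM-normalized CPM. Each deposited value was a whole multiple of 1 read in its library (100% of values, tolerance 1e-06), so reads were recovered. The study names 3 replicates for its mouse cultures, while 2 per group were analysed here.

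The 13665 genes with at least 1 CPM in at least 2 libraries were compared by limma 3.58.1 in R 4.3.3 (trended eBayes on log2(CPM + 1), 1 mean per group, no replicate block, Benjamini-Hochberg adjustment), a scale that understates the change of low genes. Static and stretched cultures of a number came from 1 animal by the labels (r of their deviations 0.70 in WT and 0.85 in CAV1-/-). Alternatives included edgeR 4.0.16 and DESeq2 1.42.0. P-values measure the spread between these few cultures. The members, lists and naming rule were chosen with earlier results of these data known. Named were the 8 members, in each pathway list the gene with the largest positive and the largest negative genotype difference and any called, the nearest genes in pattern, and Cav1. The fit was also run on simulated counts that held no differences between animals, so that run cannot show how it behaves with the spread between these animals. Marker lists comprised mesothelial, leukocyte, fibroblast and endothelial genes, of which 5 of 6 endothelial markers had a value and summed to between 22.7 and 71.8 CPM. Pecam1 had no row, and Emcn was at 0 in some libraries.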

Additional observations from a re-analysis of the deposited data

Results flagged for a closer look

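Of the members and the pathway genes set beside them, 2 moved one way on stretch in both WT animals and the other way in both CAV1-/- animals. The glypican Gpc2 had stretch differences of -0.22 and -0.36 in WT and 0.20 and 0.064 in CAV1-/- animals on the log2(CPM + 1) scale, so the mean in CAV1-/- was 0.42 above that in WT (limma interaction 95% interval -0.97 to 1.81, adjusted p = 1.00). Extl1, of chain synthesis, had -1.11 and -0.19 in WT and 0.13 and 0.083 in CAV1-/- animals, a difference of 0.75 (95% interval -0.71 to 2.21, adjusted p = 1.00). Neither difference passed the test. Among the marker genes, Krt19 and Vwf also did so, with -0.80 and -0.18, and -0.46 and -0.70, in WT against 0.49 and 0.55, and 0.22 and 0.14, in CAV1-/- animals. Extl1 was under 1 CPM in all 4 CAV1-/- cultures.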

How the results depend on the processing

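No member had an adjusted p under 0.05 in any genotype comparison or the interaction under any alternative, leaving out 1 culture or animal included. The count of all genes called depended on the test. For CAV1-/- against WT in static culture (10 genes by limma) it was 6 without the variance trend, 2 by edgeR, 309 by DESeq2, 1117 by unadjusted p, 246 with the replicate number as a block, 2 with the animal as a random effect, and 0 from the 4 libraries alone. For stretched culture (8 genes) it was 237 by DESeq2, 856 by unadjusted p, 110 with the replicate block and 0 from the 4 libraries alone. Over both conditions (0 genes by limma, 814 by unadjusted p) it was 358 by DESeq2, 25 with the replicate block and 10 with the animal as a random effect. Across genotypes the block is the replicate number, and the labels do not say what same-numbered cultures share. Their deviations were related (r 0.52 static and 0.48 stretched), and the main fit does not use the number. For stretch, where the block is the animal, 1 gene was called in CAV1-/- in place of 0, and DESeq2 called 3 genes in WT and 7 in CAV1-/- (310 and 286 by unadjusted p). The interaction gave 66 genes by unadjusted p. Leaving out 1 culture, or both cultures of CAV1-/- replicate 1 (chosen after seeing the data), gave 0 to 8 genes in static and 0 to 7 in stretched culture. The causes were not tested.

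Signs turned for each of the 8 members in at least 1 comparison. In static culture quantile normalization gave -0.0060 for Sdc2 and -0.078 for Sdc4, and the interaction of Sdc1 was 0.072 by edgeR and 0.059 by DESeq2. With 1 culture left out, the static difference ran from -3.83 to 0.21 for Gpc3, -0.41 to 0.23 for Gpc6, -0.22 to 0.25 for Sdc2 and -0.16 to 0.17 for Sdc4. The stretched difference ran from -0.20 to 1.24 for Gpc1, -2.83 to 0.66 for Gpc3, -0.90 to 0.20 for Gpc4, -1.02 to 0.52 for Gpc6, -0.23 to 1.49 for Sdc1, -0.41 to 0.099 for Sdc2 and -0.26 to 0.081 for Sdc4. With 1 animal left out, the difference over both conditions ran from -3.33 to 0.43 for Gpc3, -0.94 to 0.040 for Gpc4, -0.71 to 0.37 for Gpc6, -0.036 to 1.34 for Sdc1, -0.32 to 0.17 for Sdc2 and -0.21 to 0.12 for Sdc4. The interaction ran from -0.90 to 0.54 for Gpc1, -1.29 to 2.74 for Gpc3, -0.36 to 0.75 for Gpc4, -0.93 to 0.61 for Gpc6, -0.91 to 0.82 for Sdc1, -0.43 to 0.083 for Sdc2, -0.74 to 0.84 for Sdc3 and -0.26 to 0.077 for Sdc4. The genotype difference of Sdc3 was positive under every alternative. A group left with 1 culture was assumed to vary like the others.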
